A study of Mus with 2 samples.

Results

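Egr1, Klf2, Klf4, Klf6, Ier2, Btg2, Zfp36, Dusp1, Socs3 and Ier3 are immediate early and feedback genes. Immediate early genes are switched on within minutes of a stimulus, without new protein synthesis, and growth factors, cytokines, cell stress and the enzymatic dissociation of tissue all induce them. Their products include transcription factors, which pass the signal on to later genes, and inhibitors, which damp the signal by removing phosphate from kinases, by blocking cytokine receptors or by shortening the life of short-lived mRNAs. In the kidney they are known as early responders to injury of the tubule and to inflammation. The 10 genes were taken by name from the authors' deposited table, which lists 8191 genes in all.

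Droplet single-cell RNA sequencing was done on dissociated whole kidneys of C57BL/6 mice in 2 groups, each with 1 library. The labels call the groups young mice and senescent mice and name no treatment and no genetic change. The sources used here give neither the ages and the sex nor how many mice went into a library. The series states 10895 cells for the young and 4408 for the senescent mice. The values are the authors' mean expression per cell within 7 clusters on a scale that is not stated. The clusters carry the authors' names for tubule cells (PT and LOH), for endo, and for immune cells (Marco, T, B and Neutro). A gene is listed in a cluster only if it passed a p-value under 0.05 over cells, and a pair of gene and cluster that is not listed therefore has no value and cannot be called unchanged.

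Each mean comes from 1 library without SD, so the young and senescent values below compare these libraries and have no check between mice. A gene was counted as higher when its senescent mean was at least 2 times its young mean, and as lower in the reverse case. Where a smaller difference is included, the text speaks of a higher or lower mean. Depth is unknown, and no counting interval was computed. Cell barcodes were not analysed here. The young and senescent columns were assigned by the descriptions in the labels, and the name of the contrast in the deposited table does not say which group is which.

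Of 70 possible pairs of these genes and clusters, 43 were listed, and in all 43 the senescent mean was above the young mean. The ratio was at least 2 in 42 of them, the exception being Ier3 in PT. Over the 37 pairs with a young mean above 0, the ratio of senescent to young ran from 1.88 to 60.0, with a median of 7.45. The other 6 pairs have no ratio, because their young mean was listed at 0. They are Socs3 in LOH, T, B and Neutro, and Egr1 and Klf4 in endo. In the authors' deposited table, 21 of these 42 higher pairs also had an adjusted p of at most 0.05, which measures spread between cells and not between mice.

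The count of higher members has to be read against the count over all listed genes of a cluster. In PT, 6 of the 7 listed members were higher, where 57.2% of all listed genes were. In LOH all 7 listed members were higher against 27.5% of all listed genes, in endo all 6 against 41.4%, and in Marco all 10 against 47.6%. In T all 5 listed members were higher against 25.9%, in B all 6 against 16.3%, and in Neutro both listed members against 5.29%. The share of all listed genes that were lower was 5.60% in PT, 21.1% in LOH, 33.9% in endo and 31.5% in Marco. It was 38.9% in T, 54.1% in B and 93.4% in Neutro. With the adjusted p of the authors' deposited table required as well, the members were 6 in PT (57.2% of all listed genes there), 4 in LOH (2.16%), 0 in endo (0.389%), 10 in Marco (22.9%), 0 in T (3.85%), 1 in B (2.79%) and 0 in Neutro (0%). Listing itself selected genes that differed, and the members were chosen with earlier results of these data known, so these counts describe the genes and are not a test of them.

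**Figure D1:**
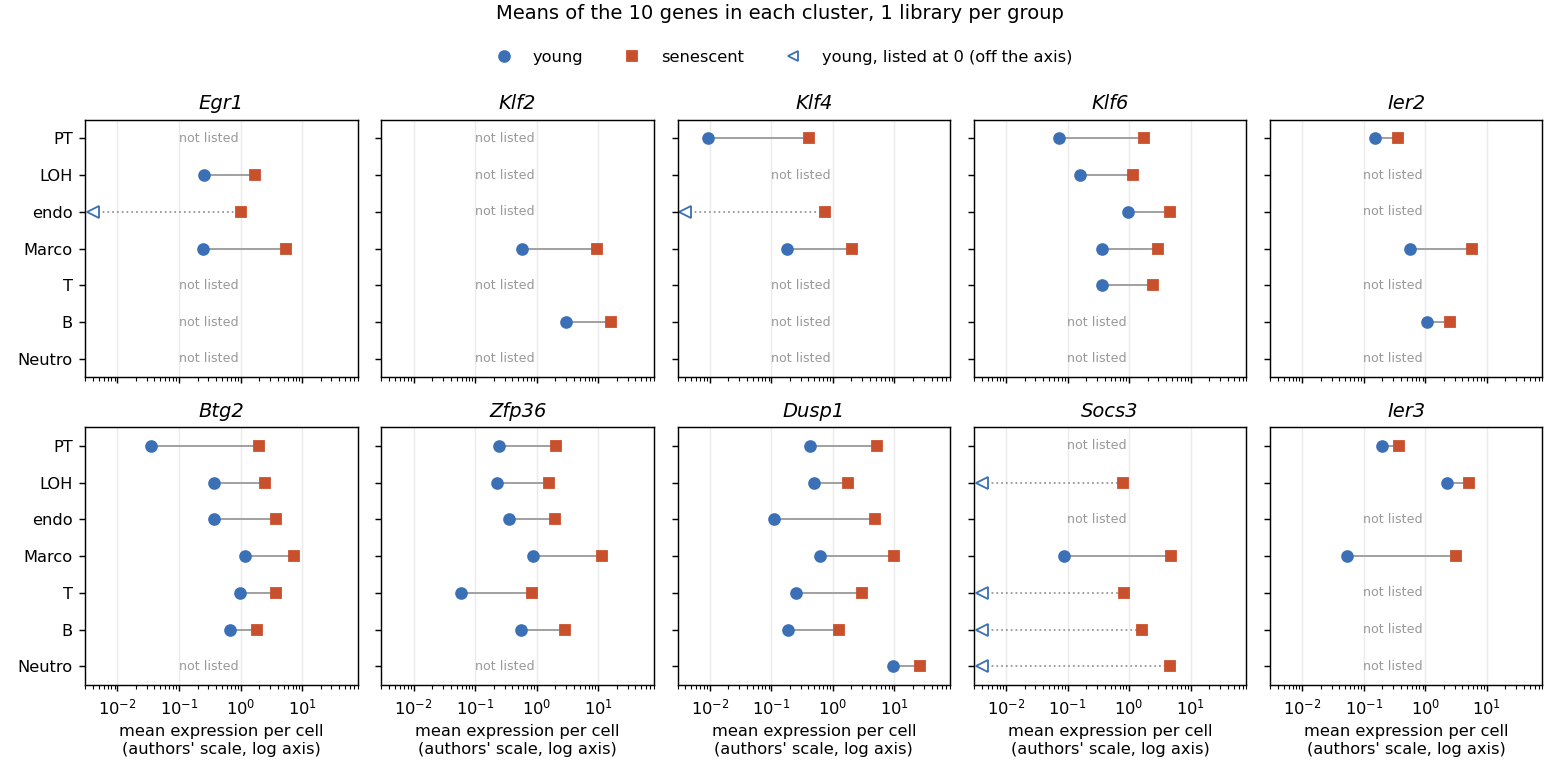
Mean expression per cell (horizontal log axis, the authors' scale) of each of the 10 genes in each cluster, in the young (blue circles) and the senescent library (red squares); open triangles mark young means listed at 0, which lie off the log axis. Every listed pair lies higher in the senescent library, with gaps that run from 1.88-fold for Ier3 in PT to 60.0-fold for Ier3 in Marco.

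Egr1 encodes a zinc finger transcription factor that is induced through MAP kinase and serum response factor. In Marco, Egr1 had a young mean of 0.245 and a senescent mean of 5.44, a 22.2-fold difference. In LOH the Egr1 means were 0.252 and 1.74, a 6.89-fold difference. In endo the young mean of Egr1 was listed at 0 and the senescent mean at 1.00. The young means of Egr1 in LOH and Marco were thus nearly the same, whereas the senescent mean was 3.13 times as high in Marco as in LOH. In the authors' deposited table the adjusted p of Egr1 in LOH was 0.0638, and in PT Egr1 was not listed. Egr2, Egr3 and Egr4 were listed in no cluster, and of the corepressors of the EGR proteins Nab1 was higher in PT (0.101 and 0.273) and T (0.162 and 0.578), had means of 0.171 and 0.336 in Marco, and was lower in B (0.261 and 0.1002).

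Klf2, Klf4 and Klf6 encode Krüppel-like zinc finger factors. Klf2 maintains quiescence in lymphocytes and, like Klf4, responds to shear stress in endothelium, and Klf6 is induced early in injured tissue. Klf2 was listed in Marco and B only. In B its means were 3.04 and 16.2, a 5.34-fold difference, and in the authors' deposited table Klf2 alone of the 6 listed members passed the adjusted p in B, at 0.00366. In Marco the means of Klf2 were 0.568 and 9.42, a 16.6-fold difference. The B cluster had the higher Klf2 mean in either library, by 5.34 times in the young and 1.72 times in the senescent library. Of 6 genes checked as targets of Klf2, 1 was listed in B, the sphingosine phosphate receptor gene S1pr1. It was higher, at 0.380 and 1.70, in a cluster where 16.3% of all listed genes were. In T, where Klf2 was not listed, 2 of the 6 were listed and higher, beside 25.9% of all listed genes, with Itgb7 at 0.445 and 1.84. Whether Klf2 acts on these genes here was not tested.

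Klf4 in PT had a young mean of 0.00946 and a senescent mean of 0.407, a 43.1-fold difference from a level that was the lowest above 0 of any member. In Marco its means were 0.182 and 2.07, an 11.3-fold difference, and in endo it was listed at 0 and 0.742. The senescent mean of Klf4 was highest in Marco and lowest in PT. Klf6 was listed in 5 clusters. In PT its means were 0.0719 and 1.76 (24.5-fold), and in LOH they were 0.157 and 1.17 (7.45-fold). In endo Klf6 had means of 0.944 and 4.63 (4.91-fold), in Marco 0.360 and 2.90 (8.04-fold), and in T 0.359 and 2.45 (6.82-fold). The endo cluster thus held the highest Klf6 mean in each library and the smallest ratio, and PT held the lowest young mean and the largest ratio.

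Other members of the KLF family did not all go the same way. Klf13 was higher in each of the 5 clusters that list it, with means of 0.0653 and 0.522 in PT and 0.446 and 3.36 in Marco. Klf9, a target of glucocorticoid and thyroid hormone, was higher in PT (0.813 and 3.06) but lower in Marco (1.21 and 0.403), T (1.11 and 0.367) and B (1.12 and 0.260). Klf15, a metabolic regulator that is also induced by glucocorticoid, was at 0.322 and 0.571 in PT and at 0.386 and 0.0514 in Marco, and it was listed at 0 in the senescent library in T and B. The young means of Klf9 and Klf15 were thus of similar size in PT and in the immune clusters, whereas those of Klf2, Klf4 and Klf6 differed more between the clusters that list them. In B the family held 1 higher gene, Klf2, and 3 lower genes, Klf9, Klf10 and Klf15. Of all listed genes, 54.1% were lower in B, beside 38.9% in T and 31.5% in Marco, so a lower mean was common in these clusters.

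Ier2 encodes a nuclear protein of the immediate early class. It was listed in 3 clusters, with means of 0.154 and 0.360 in PT (2.34-fold), 0.558 and 5.63 in Marco (10.1-fold), and 1.08 and 2.48 in B (2.30-fold). In PT its fold change stood at rank 2514 of 5037 listed genes, in the middle of the cluster, and in Marco at rank 243 of 4462. The related gene Ier5 had means of 0.121 and 0.698 in PT, 0.661 and 3.62 in Marco, 0.0498 and 0.794 in T, and 0.657 and 1.78 in B.

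Btg2 and Zfp36 act on RNA. Btg2 encodes an antiproliferative protein, a target of p53, that promotes the removal of poly(A) tails, and Zfp36 encodes tristetraprolin, which binds AU-rich elements in cytokine mRNAs and speeds their decay. In PT, Btg2 had a young mean of 0.0349 and a senescent mean of 1.97, a 56.4-fold difference at rank 14 of 5037 listed genes. Its means were 0.368 and 2.49 in LOH (6.77-fold), 0.372 and 3.84 in endo (10.3-fold), and 1.16 and 7.39 in Marco (6.35-fold). In T they were 0.964 and 3.78 (3.92-fold) and in B 0.663 and 1.84 (2.78-fold). The young means of Btg2 differed by 33.3 times between the highest cluster, Marco, and the lowest, PT, whereas its senescent means differed by 4.01 times between Marco and B.

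Zfp36 was listed in the same 6 clusters as Btg2. Its means were 0.243 and 2.09 in PT (8.61-fold), 0.224 and 1.57 in LOH (7.03-fold), and 0.353 and 2.01 in endo (5.69-fold). In Marco they were 0.873 and 11.4 (13.0-fold), in T 0.0586 and 0.829 (14.2-fold), and in B 0.564 and 2.89 (5.12-fold). The ratio of Zfp36 thus stayed between 5.12 and 14.2, while its level differed by 14.9 times between clusters in the young and by 13.7 times in the senescent library, with Marco highest and T lowest in each.

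The paralogs Zfp36l1 and Zfp36l2, whose products bind the same kind of element, were higher wherever they were listed. Zfp36l1 had means of 0.456 and 7.64 in PT, 1.59 and 7.11 in LOH, and 2.45 and 11.8 in endo. Zfp36l2 had means of 0.740 and 4.07 in Marco, 1.497 and 8.33 in T and 0.272 and 1.53 in B. All 17 listed pairs of this family and a cluster, those of Zfp36 included, were thus at least 2 times higher in the senescent library. The share of all listed genes that were higher ran from 16.3% in B to 57.2% in PT over the clusters concerned. Of 10 genes whose mRNAs are known targets of tristetraprolin, Ier3 among them, 6 were listed in Marco and all 6 were higher, in a cluster where 47.6% of listed genes were, with Il1b at 1.34 and 13.0, Tnf at 0.0310 and 0.331, and Ccl2 at 0.108 and 3.04. In PT the listed targets were Ier3 and the chemokine gene Cxcl1, the latter at 0.00565 and 0.644. Among relatives of Btg2, Btg1 was higher in PT, LOH, Marco, T and B, with means of 2.70 and 15.4 in T, whereas Tob1 was higher in PT (0.589 and 2.28) and lower in B (0.696 and 0.124).

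Dusp1 encodes a nuclear phosphatase that inactivates stress-activated MAP kinases, and glucocorticoids induce it too. It was the only member listed in all 7 clusters. In PT its means were 0.416 and 5.16 (12.4-fold), in LOH 0.495 and 1.75 (3.53-fold), and in endo 0.112 and 4.92 (43.9-fold). In Marco they were 0.613 and 9.99 (16.3-fold), in T 0.251 and 2.99 (11.9-fold), and in B 0.185 and 1.25 (6.76-fold). The Neutro cluster had the highest Dusp1 mean in each library, at 9.41 and 25.6, and the smallest ratio, at 2.73. Endo had the lowest young mean of Dusp1 but the fourth highest senescent mean. In the authors' deposited table Dusp1 passed the adjusted p in PT and Marco, and the value was 0.0519 in endo and 0.0684 in T.

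The other dual-specificity phosphatase genes were listed less widely. Dusp6, which encodes a cytoplasmic phosphatase of this family, had means of 0.0571 and 0.372 in PT, 0.112 and 0.332 in LOH, 0.157 and 0.684 in Marco, and 4.51 and 0.424 in Neutro. Dusp2, a phosphatase gene of activated leukocytes, had means of 0.0501 and 0.463 in Marco, 0.823 and 3.46 in T and 0.974 and 2.79 in B. In Neutro, Dusp1 was thus higher while Dusp6 and Dusp7 were lower, in a cluster where 93.4% of listed genes were lower by at least 2 times. Dusp7 had means of 1.07 and 0.0224 there, and 1.07 was the smallest young mean above 0 of any gene listed in Neutro. Of the kinases, their regulators and the factors that act upstream (a list of 22 genes, among them Srf, Elk1 and Creb1), 13 were listed in PT. All 13 had higher means there, 11 of them by at least 2 times, beside 57.2% of all listed genes of PT. Their median log2 ratio after adding 0.1 to each mean was 0.88, beside 0.85 for all listed genes of PT. In PT this median was thus close to that of the cluster as a whole, whereas the median of the 7 listed members there was 2.68 on the same scale. In the other clusters that list these genes, their median lay above that of all listed genes. It was 1.16 beside 0.72 in Marco (6 listed), 1.38 beside -0.40 in T (5 listed) and 0.53 beside -0.89 in B (3 listed). In LOH the 1 listed gene, Elk4, was at 1.27 beside -0.35.

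Socs3 encodes a suppressor of cytokine signalling that is induced by STAT3 and blocks the receptors of interleukin-6 and related cytokines. In Marco its young mean was 0.0860 and its senescent mean 4.72, a 54.9-fold difference at rank 42 of 4462 listed genes. In the other 4 clusters that list it, the young mean was 0, and the senescent mean was 0.794 in LOH, 0.828 in T, 1.61 in B and 4.67 in Neutro. Socs3 was thus at or near 0 in the young library wherever it was listed. The smallest young mean above 0 of any listed gene was 0.00816 in LOH, 0.0172 in T, 0.0310 in B and 1.07 in Neutro, so in Neutro no young mean between 0 and 1.07 was listed for any gene.

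Genes upstream of Socs3 were listed in 6 clusters. Stat3 itself was higher in PT (0.0454 and 0.564), LOH (0.283 and 1.28), Marco (0.220 and 1.35) and T (0.126 and 1.16). In Marco 9 of 19 genes of this pathway were listed and all 9 were at least 2 times higher, beside 47.6% of all listed genes there, among them Il6ra at 0.106 and 0.846, and Osm, the gene of the cytokine oncostatin M, at 0 and 0.341. Other genes of this list went the opposite way outside Marco and PT. The shared receptor subunit gene Il6st was lower in T (0.372 and 0.0835), and the interleukin-11 receptor gene Il11ra1 was lower in T (0.202 and 0.0316) and B (0.402 and 0.0324), with means of 0.951 and 0.559 in LOH. The kinase gene Tyk2 was lower in Neutro (1.12 and 0.0344), where the smallest young mean above 0 of any listed gene was 1.07. Of all listed genes, 38.9% were lower in T, 54.1% in B and 93.4% in Neutro, so lower genes were common in these clusters. Il6, Lif and Il11 were listed in no cluster. Socs2, an inhibitor of growth hormone signalling, was higher in PT (0.243 and 0.893) and LOH (0.406 and 0.971) and lower in Marco (0.293 and 0.103) and B (0.407 and 0.0613). Cish, another inhibitor of this family, had means of 0.115 and 0.518 in PT and 0.330 and 1.44 in T. In PT, where Socs3 was not listed, all 4 listed members of the SOCS family were at least 2 times higher, beside 57.2% of all listed genes there.

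Ier3 encodes a stress-inducible protein that modulates cell death. Its means were 0.199 and 0.375 in PT (1.88-fold), 2.23 and 5.12 in LOH (2.30-fold), and 0.0529 and 3.18 in Marco (60.0-fold). Ier3 thus had its highest level in LOH in each library, and the smallest and the largest ratio of any member. Its rank by fold change was 3034 of 5037 in PT, 399 of 1761 in LOH and 40 of 4462 in Marco.

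**Figure D2:**
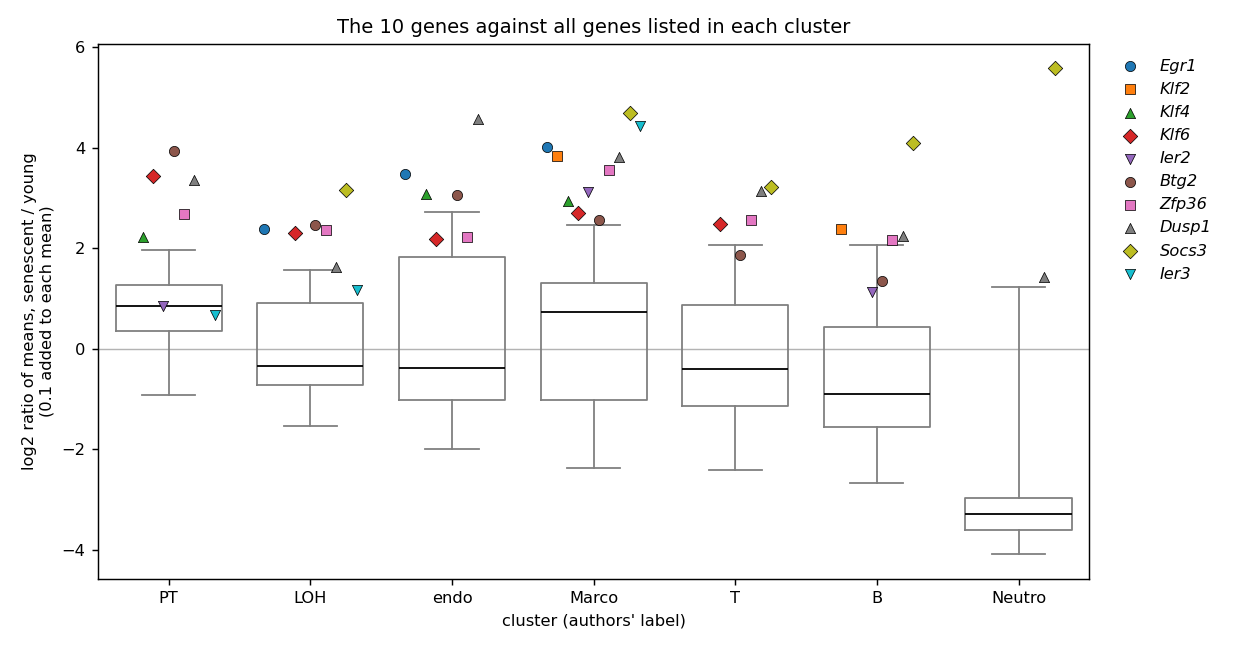
Log2 ratio of the senescent to the young mean after adding 0.1 to each, for each of the 10 genes (coloured symbols) and for all genes listed in the cluster (boxes from the lower to the upper quartile with the median, whiskers from percentile 5 to percentile 95). Most symbols lie above the boxes, and Ier2 and Ier3 in PT lie inside the box, near the PT median of 0.85.

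The members stood high among the listed genes of most clusters. Ordered by the fold change in the authors' deposited table, 33 of the 43 pairs were in the top 10% of their cluster, and 27 of these had a young mean above 0. The pairs outside the top 10% were Ier2 and Ier3 in PT, Ier3 and Dusp1 in LOH, Btg2 in Marco, Ier2 in B, and Klf6, Btg2, Zfp36 and Dusp1 in endo. In endo, 169 of the 1028 genes have a young mean of 0 and take the top ranks, ahead of any gene with a young mean above 0. The median log2 ratio of the members, with 0.1 added to each mean, was 2.37 in LOH beside -0.35 for all listed genes, 3.07 in endo beside -0.39, and 3.69 in Marco beside 0.72. It was 2.55 in T beside -0.40, and 2.21 in B beside -0.89.

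The immediate early genes of the AP-1 family, which share these libraries, had higher means in all 33 listed pairs of gene and cluster. The difference was at least 2 times in 32 of them, in clusters where from 16.3% (B) to 57.2% (PT) of all listed genes were higher. The pair under 2 times was Jun in B, with means of 1.20 and 2.15. In Marco, Fos had means of 0.941 and 31.8 and Junb had means of 0.933 and 15.6, and in PT Fos was at 0.0598 and 3.35. Of a list of 33 symbols of further immediate early genes, 13 were listed in PT and 12 of these were higher, where 57.2% of all listed genes were, with Myc at 0.0129 and 0.490, the GTPase gene Rhob at 0.103 and 1.57, Plk2 at 0.0157 and 0.270, and the matricellular gene Ccn1 at 0.242 and 3.98. In Marco, 13 of 16 of that list were higher beside 47.6% of all listed genes, and Gadd45a and Pim3 were lower, at 0.350 and 0.102 and at 0.857 and 0.319. In T, 5 of 10 were higher beside 25.9% of all listed genes, and in B 4 of 7 beside 16.3%, and Pim3, Gadd45g and Gadd45a had lower means in both. Of 14 other feedback inhibitor genes, 7 were listed in PT and all 7 were higher, beside 57.2% of all listed genes there, among them Nfkbiz at 0.0148 and 0.932. In all 3 immune clusters that list it, the EGF receptor inhibitor gene Errfi1 had a lower senescent mean, with values of 1.25 and 0.646 in Marco, 1.46 and 0.545 in T and 1.18 and 0.758 in B, whereas it was higher in PT, at 1.49 and 7.29. Its young means in these 3 clusters were thus of similar size to that in PT. Young means of Gadd45a were 0.350 in Marco, 0.346 in T and 0.756 in B, beside 0.346 in PT. Of all listed genes, 31.5% were lower in Marco, 38.9% in T and 54.1% in B. Any part of tubule transcripts in these lower means was not tested.

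**Figure D3:**
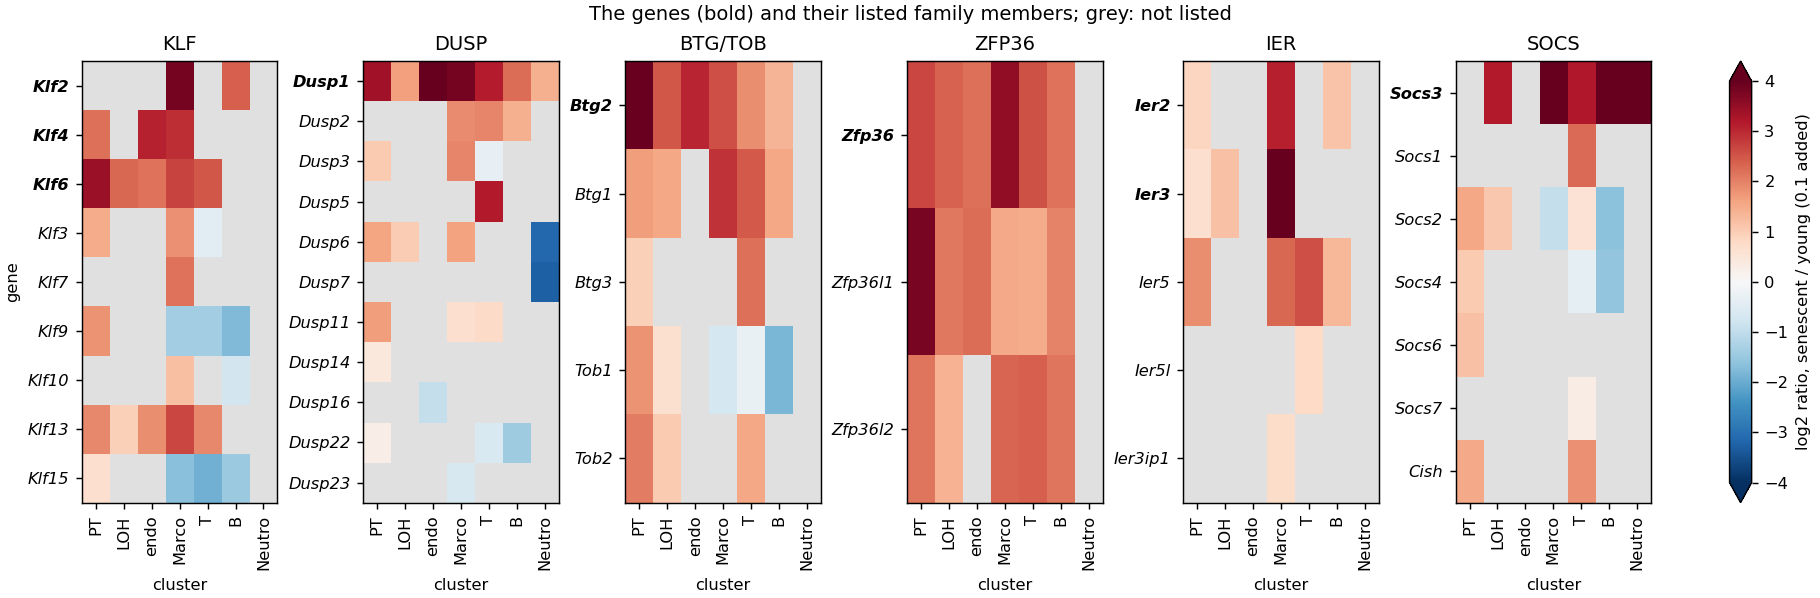
Log2 ratio of the senescent to the young mean after adding 0.1 to each (colour scale, values past 4 in either direction share the end colour) for the members (bold) and their listed relatives, by cluster; grey cells are not listed. The rows of Zfp36 and its paralogs are red throughout, while Klf9, Klf15, Tob1 and Socs2 are red in PT and blue in Marco, B or both.

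Genes with a pattern like that of a member were sought among the genes listed in all of its clusters, by the mean absolute difference of the log2 ratios with 0.1 added. Over 5 clusters and 203 candidate genes, the genes most like Klf6 were Zfp36 (0.36), Btg2 (0.46) and Zfp36l1 (0.56), where the median candidate differed by 3.50. Over 6 clusters and 176 candidates, Btg2 was most like Jun (0.53), Zfp36l1 (0.57) and Txnip (0.64), and Zfp36 was most like Junb (0.50), Apoe (0.58) and Msn (0.71). These distances were a small part of the median candidate distances of 3.68 for Btg2 and 3.73 for Zfp36. The candidates include genes with lower senescent means in every cluster, Kap among them. The median distance therefore does not show how far apart genes with higher means lie. Dusp1, over 7 clusters with only 11 candidates, came closest to S100a9 (0.98) and Tmsb4x (2.01), and Socs3, over 5 clusters and 34 candidates, to S100a9 (1.66), Dusp1 (1.69) and S100a6 (1.76). All clusters share the same pair of libraries, so these points are not independent.

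A property that the choice by name did not use is the length of the genes. The 10 genes span from 1.20 to 8.91 kb of the genome, with a median of 3.32 kb, beside 23.5 kb for all listed genes with a known span. In PT the share of listed genes that were higher went up with the span, from 25.7% in the shortest quintile (up to 8.55 kb) to 84.9% in the longest. Klf4, Ier2, Btg2, Zfp36, Dusp1 and Ier3 fell in that shortest quintile, and Klf6 in the next. Among the 1029 genes of PT that are no longer than Klf6, 25.9% were higher, beside 6 of the 7 members. In LOH the same share was 20.1% of 557 genes and in endo 33.8% of 272 genes, beside all 7 and all 6 members. In Marco it was 43.3%, in T 25.6% and in B 19.6%, so that in these clusters the share among short genes was close to that among all genes. The longest quintile also held a larger share than the shortest in LOH (49.4% and 22.9%) and endo (58.4% and 36.6%). The shorter quintiles of these 2 clusters showed no steady climb. In Marco the longest and shortest quintiles held 54.9% and 44.4%, in T 28.2% and 27.2%, and in B 17.6% and 22.3%. What sets the relation of span and ratio in any cluster was not tested.

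**Figure D4:**
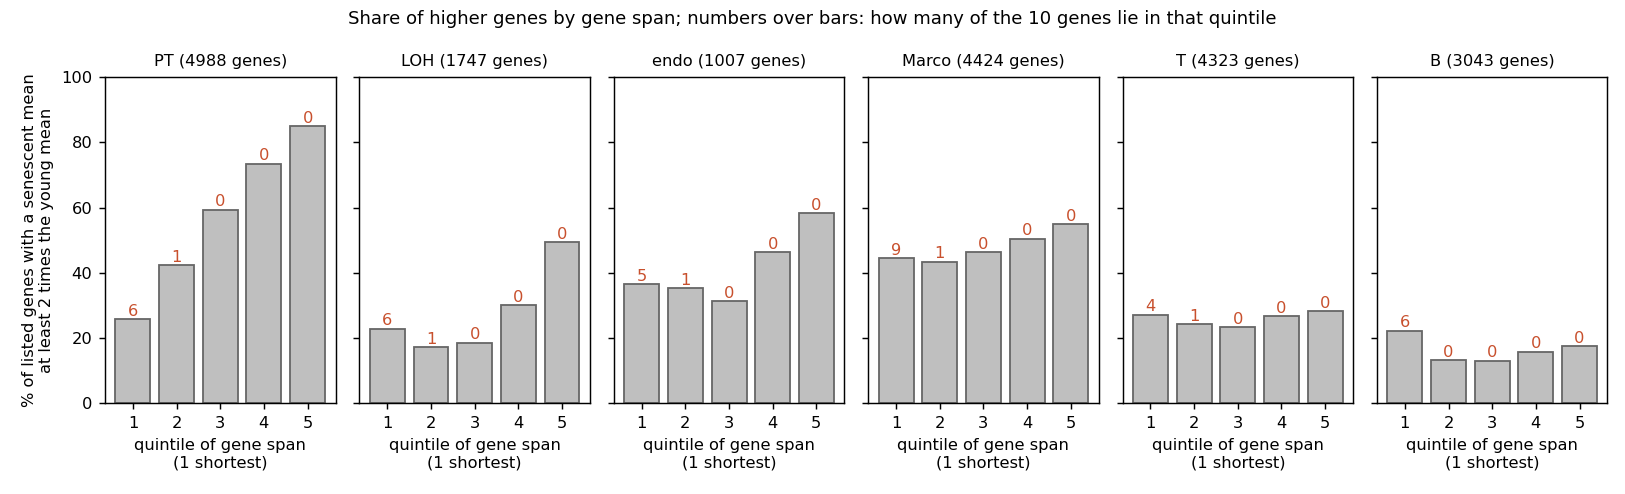
Percentage of listed genes with a senescent mean at least 2 times the young mean (vertical axis) in quintiles of the listed genes by genomic span, for 6 clusters; the number over each bar counts how many of the 10 genes lie in that quintile. The bars climb from 25.7% to 84.9% in PT, and the longest quintile is also the highest in LOH (49.4%) and endo (58.4%). The members lie in the shorter 2 quintiles in every cluster shown.

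In the mouse genome assembly GRCm38.p6, which is the mm10 build of the files, Btg2 (ENSMUSG00000020423) lies on chromosome 1 from 134074865 to 134079155, and Klf4 (ENSMUSG00000003032) on chromosome 4 from 55527137 to 55532475. Zfp36 (ENSMUSG00000044786) lies on chromosome 7 from 28376784 to 28379228. Klf2 (ENSMUSG00000055148) and Ier2 (ENSMUSG00000053560) both lie on chromosome 8, from 72319062 to 72321654 and from 84661331 to 84662852. Socs3 (ENSMUSG00000053113) lies on chromosome 11 from 117966079 to 117970336, and Klf6 (ENSMUSG00000000078) on chromosome 13 from 5861489 to 5870393. Dusp1 (ENSMUSG00000024190) and Ier3 (ENSMUSG00000003541) are on chromosome 17, from 26505591 to 26508472 and from 35821713 to 35822911. The annotation gives all of these as protein coding, and the expression values cover a gene's whole transcript set, with no split by exon. In the annotation that the deposited table carries, Btg2, Dusp1, Ier3 and Socs3 share the term negative regulation of apoptotic process, which 300 listed genes have. Btg2 and Zfp36 share that of positive regulation of poly(A) tail shortening, which 12 have, and Klf2 and Klf4 that of response to laminar shear stress, which 5 have.

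Markers of other cell types moved with the members in several clusters, and their part in the values was not tested. In Marco, T and B, transcripts of the proximal tubule were high in the young library. The summed mean of the listed tubule markers went from 899 to 34.6 in Marco (19 of 20 listed), from 732 to 31.1 in T (20 of 20) and from 741 to 38.4 in B (19 of 20), and each marker had a lower senescent mean. Kap alone made up 642, 505 and 499 of the young sums, and in PT itself it went from 719 to 21.4. Without Kap the sums went from 257 to 32.3 in Marco, from 227 to 28.3 in T and from 242 to 37.2 in B, whereas in PT they were 306 and 292. Of markers of other immune cells, the immunoglobulin gene Igkc went from 0.188 to 1.99 in Marco and from 0.610 to 7.77 in T, and 3 neutrophil markers in Marco went from 0.0589 to 6.58 as a sum. S100a9 went from 0.0172 to 0.528 in T, and S100a8 and S100a9 from 0 to 1.22 as a sum in B. Markers of the clusters' own cell types had higher means along with the members. Their median log2 ratios were 2.78 for 12 of 12 macrophage markers in Marco, 1.77 for 10 of 10 T cell markers in T and 1.23 for 6 of 7 B cell markers in B, beside 3.69, 2.55 and 2.21 for the members. In Neutro the neutrophil markers S100a8 and S100a9 had senescent means 1.995 and 2.62 times the young means, beside 2.73 times for Dusp1. Among genes used in every cell, Actb had means of 21.8 and 116 in Marco, and Gapdh had means of 14.6 and 9.58.

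In LOH, Egr1, Klf6, Btg2, Zfp36, Dusp1, Socs3 and Ier3 were higher together with 6 of 12 macrophage markers, whose summed mean went from 1.47 to 12.1, and with the neutrophil markers S100a8 and S100a9, which went from 0.0575 to 5.42 as a sum. The B cell marker Igkc went from 0.0599 to 1.41 there. The summed mean of 18 listed tubule markers went from 309 to 28.5, or from 106 to 26.9 without Kap, and the LOH marker Umod went from 47.6 to 148. In endo, 4 of 12 macrophage markers were listed and all were higher, as a sum from 5.72 to 19.7, with Lyz2 and Fcer1g listed at 0 in the young library. In the same cluster S100a8 and S100a9 went from 0 to 3.21 as a sum and Igkc from 0 to 1.51. The tubule markers listed in endo (8 of 20) went from 414 to 146 as a sum, but from 119.9 to 142 without Kap, since Gpx3 went from 52.3 to 102 while the other 6 had lower means. None of the 10 endothelial markers checked was listed in endo, so the label of that cluster could not be checked on them. In PT, 4 of 12 macrophage markers were listed, with a median log2 ratio of 0.05, and Apoe was the one that stood apart, at 0.776 and 12.4. The 2 listed neutrophil markers there went from 0.629 to 2.05 as a sum, and Igkc from 0.501 to 1.59.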

How the data were processed

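Cell Ranger 2.1.1 and the mm10 build are named in the submitters' processing notes. The values of each group are a signal, the authors' mean expression per cell of a cluster, in 1 deposited table. The sources used here give no scale factor, cell filter, doublet treatment, clustering or test. The log2 fold changes of the members in the deposited table are those of the means with 0.0001 added, within 0.01, in 43 of 43 pairs. The p-value and the adjusted p in the deposited table are over cells. The authors head the adjusted p as FDR. Over entries with an adjusted p below its ceiling, the median ratio of adjusted p to p-value was 32574. Such a multiple is what a Bonferroni-type correction gives, which is stricter than a false discovery rate, and the method is not stated. The smallest absolute log2 fold change that it lists is 0.36.

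Ratios of the means were computed for every listed gene and cluster. A pseudocount of 0.1 was added for medians and for likeness, which understates the change of low genes. No test was run, since each group had 1 library. Only the cut at 2 times was tried on simulated data, made by putting larger known changes on the young means of PT. Its outcome was largely set in advance. That trial did not cover young means of 0, the counting of low genes, the listing by p-value, likeness or spans. The members and gene lists were chosen with earlier results of these data known, and some list genes are not reported here. The text names all members, up to 4 genes with the largest ratios of each list, the 3 genes most like a member listed in at least 5 clusters and, chosen after their values were seen, other relatives, pathway genes and markers. Spans come from RefSeq (GRCm38.p6), matched by symbol for 8105 of 8191 genes. Alternatives were other pseudocounts, ratios of at least 1.5 or 4, a minimum mean of 0.1, the authors' adjusted p and, chosen after seeing the data, leaving out young means of 0. Python 3.11.15, numpy 2.4.6, pandas 2.3.3 and matplotlib 3.10.9 were used.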

Additional observations from a re-analysis of the deposited data

How the results depend on the processing

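Each count of higher members came from 1 library per group. With the authors' adjusted p of at most 0.05 required as well, the higher pairs were 21 of 43 instead of 42, and the higher members were 4 in LOH, 0 in endo, 0 in T, 1 in B and 0 in Neutro. With a pseudocount of 1, the members at least 2 times higher were 3 in LOH, 3 in T and 3 in B. In Neutro 1 member was higher at a ratio of at least 4, and 1 (Dusp1) when young means of 0 were left out. In PT and Marco the count of higher members stayed within 1.5 times of its value under each alternative run, and no listed pair reversed under either pseudocount. Over the 37 pairs with a young mean above 0, the median ratio of 7.45 became 5.55 with a pseudocount of 0.1 and 2.56 with a pseudocount of 1, and 1 and 9 pairs, respectively, fell under a ratio of 2. The largest ratios shrank as well under these 2 pseudocounts. Ier3 in Marco went from 60.0 to 21.4 and 3.97, and Btg2 in PT from 56.4 to 15.3 and 2.87. Socs3 in Marco went from 54.9 to 25.9 and 5.27, and Klf4 in PT from 43.1 to 4.64 and 1.39. The depth is unknown, and unlisted pairs have no value. No paired analysis was possible because each group had 1 library and no test was run.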
